A study of Mus musculus with 2 samples.

Results

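The genes described here are 10 components of fibroblast growth factor (FGF) signalling, taken by name from the 24411 gene rows of the tables. They are the receptors *Fgfr1*, *Fgfr2* and *Fgfr3*, the Sprouty genes *Spry1*, *Spry2* and *Spry4*, the PEA3 group transcription factors *Etv1*, *Etv4* and *Etv5*, and the phosphatase gene *Dusp6*. All 10 had a row in both libraries. RNA was measured in 2 areas of the mouse brain at embryonic day 16.5, the subventricular zone (SVZ), where progenitors of the cortex lie and divide, and the cortex, which holds the neurons they produce. Each area was cut from haematoxylin and eosin stained sections of fresh frozen brain by laser capture microdissection (LCM) and gave 1 bulk RNA-seq library. Both libraries came from mice of the same age, and strain and genotype are not given in the labels. Per the study, both areas were taken from a slide adjacent to the one used for its own assay, with 1 section collected on a slide, and the number of embryos is not given in the sources used here. With 1 library per area there was no replicate and no test between the areas, so the size of each difference is given with its counting error only. Fewer cells of a type and less RNA per cell cannot be told apart in bulk tissue.

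FGF ligands bind receptor tyrosine kinases on the cell surface, which signal through docking adaptors, RAS and a chain of kinases to ERK. Active ERK raises transcription of the PEA3 group factors and of its own brakes, among them the Sprouty proteins, which act upstream of ERK, and DUSP6, which removes phosphate from ERK in the cytoplasm. In the developing telencephalon the pathway is known for patterning and for keeping radial glia dividing. The counts are of RNA and hold no measure of ERK activity.

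Genes took 51435667 reads of the SVZ library but 22050693 of the cortex library, a 2.33-fold difference in depth, and the share of all reads assigned to a gene was 59.0% and 59.1%. Levels are gene-assigned reads scaled to a common total of 1000000 (CPM), so 1 read was worth 0.0194 CPM in the SVZ and 0.0454 CPM in the cortex, and a count of 0 allowed up to 0.0583 and 0.136 CPM (3 reads). Progenitor markers were higher in the library labelled SVZ and neuronal markers in the one labelled cortex. Whether the SVZ cut also took in the adjoining ventricular zone was not tested. All 11 apical and all 6 intermediate progenitor markers were higher in the SVZ by 2-fold or more, with summed levels of 6863 against 149 CPM and 1172 against 62.0 CPM, while 7 of 10 neuronal markers (3780 against 10860 CPM) and all 7 deep-layer markers (590 against 2687 CPM) were at least 2-fold higher in the cortex. The 8 microglial markers were at least 2-fold higher in the SVZ (55.8 against 5.85 CPM, *Trem2* at 0 in the cortex). So were the 3 compared choroid plexus markers and the 3 compared astrocyte markers. The whole choroid plexus list of 6 genes summed to 249 against 2.09 CPM, with *Ttr* at 240 CPM in the SVZ. The whole astrocyte list of 5 genes summed to 59.1 against 0.272 CPM. Of this *Aldh1l1* gave 52.8 CPM in the SVZ, and the cortex value was *S100b* alone, which was not compared. Of the choroid plexus list, *Folr1*, *Clic6* and *Otx2* were at 0 in the cortex and *Kl* in both libraries, and of the astrocyte list *Aldh1l1*, *Aqp4* and *Gfap* were at 0 in the cortex and *Gjb6* in both. The vessel list summed to 145 and 111 CPM, with 1 of 8 markers at least 2-fold higher in the cortex and none in the SVZ. The oligodendrocyte precursor list summed to 12.1 and 12.0 CPM, with 1 of 3 compared markers at least 2-fold higher in the SVZ, and the outer radial glia list to 1623 and 1297 CPM, with 2 of 4 (*Hopx* and *Fam107a* at 0 in the cortex). The meningeal list summed to 4.59 and 9.39 CPM, with 2 of 4 compared markers at least 2-fold higher in the cortex (*Col1a1* at 0 in the SVZ). The interneuron list summed to 154 and 514 CPM, of which *Npy* gave 14.3 and 379 CPM, with 2 of 8 markers at least 2-fold higher in the cortex and 1 in the SVZ. Of the erythroid list the 3 globin genes were at 0 in both libraries and *Alas2* stood at 14.8 and 7.48 CPM. Reads that map to several places were not counted, so the globin zeros do not show that blood RNA was absent. The part of these cell types in the results below was not tested.

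The receptors were higher in the SVZ, *Fgfr3* by far the most. *Fgfr1* (chromosome 8, 25513654 to 25575718, plus strand; here and below on GRCm38, the assembly also called mm10) had 4463 reads in the SVZ and 1065 in the cortex, or 86.8 and 48.3 CPM. It encodes a receptor expressed widely in the embryonic nervous system. Its CPM was 1.80-fold higher in the SVZ, a log2 ratio of SVZ over cortex of 0.85 with an exact 95% counting interval of 0.75 to 0.94. *Fgfr2* (chromosome 7, minus strand) had 2455 and 613 reads, or 47.7 and 27.8 CPM, 1.72-fold higher in the SVZ (log2 ratio 0.78, 0.65 to 0.91). Its GENCODE model runs from 130162451 to 133123350 because it takes in read-through transcripts that reach *Ctbp2*, and a RefSeq start window lies at 130266759 to 130267058, so the model is far longer than the gene from that start. The 2 receptors thus moved by nearly the same amount, and *Fgfr1* reads per *Fgfr2* read were 1.82 in the SVZ and 1.74 in the cortex, which differed by no more than counting error (SVZ over cortex 1.05, interval 0.935 to 1.17). *Fgfr3* (chromosome 5, 33721674 to 33737068, plus strand), a receptor known for its expression in the ventricular zone and in astrocyte precursors, had 1034 reads in the SVZ and 60 in the cortex, or 20.1 and 2.72 CPM. It was 7.39-fold higher in the SVZ (log2 ratio 2.89, 2.51 to 3.29), and its ratio lay above that of 93.3% of the compared genes, the 12738 with 1 CPM or more on average over both libraries, against 77.1% for *Fgfr1* and 75.6% for *Fgfr2*. Summed, the receptors stood at 155 CPM in the SVZ and 78.8 CPM in the cortex.

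**Figure D1:**
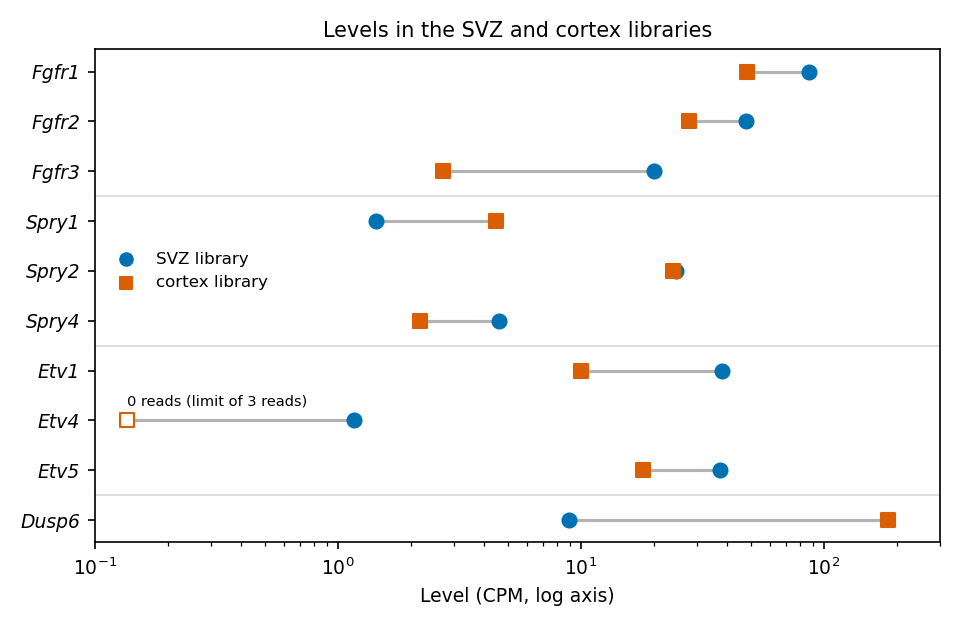
Level of each of the 10 genes in CPM (log axis), with circles for the SVZ library and squares for the cortex library, 1 library each, with a line joining the pair. *Dusp6* spans the widest gap, from 8.94 CPM in the SVZ to 183 CPM in the cortex, the *Spry2* symbols overlap, and the open square marks the level that 3 reads would give for *Etv4*, which had 0 reads in the cortex.

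The Sprouty genes went 3 ways. *Spry2* (chromosome 14, 105891947 to 105896819, minus strand), the Sprouty gene with the most reads in both areas, had 1266 reads in the SVZ and 529 in the cortex, or 24.6 and 24.0 CPM. Its log2 ratio was 0.04 with an interval of -0.11 to 0.19 that holds equal levels, and its sign was kept under 3 of 7 other ways of processing the counts, so no direction is given. *Spry4* (chromosome 18, 38586247 to 38601415, minus strand) had 237 and 48 reads, or 4.61 and 2.18 CPM, 2.12-fold higher in the SVZ (log2 ratio 1.08, 0.63 to 1.56). *Spry1* (chromosome 3, 37639947 to 37644598, plus strand) went the other way, with 74 reads in the SVZ and 99 in the cortex although the cortex library was the shallower one. At 1.44 and 4.49 CPM it was 3.12-fold higher in the cortex (log2 ratio -1.64, -2.10 to -1.19). All 3 encode inhibitors of receptor tyrosine kinase signalling, and their summed level was 30.7 CPM in both libraries.

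The PEA3 group factors, ETS family transcription factors that bind DNA at GGAA cores and follow FGF signalling in many embryonic tissues, were higher in the SVZ throughout. *Etv1* (chromosome 12, 38779380 to 38870484, plus strand) had 1953 reads in the SVZ and 221 in the cortex, or 38.0 and 10.0 CPM. It was 3.79-fold higher in the SVZ (log2 ratio 1.92, 1.72 to 2.13). In the postnatal cortex the gene is used as a marker of deep-layer projection neurons, and its direction here was opposite to that of the 7 deep-layer markers. *Etv5* (chromosome 16, 22381309 to 22439719, minus strand) had 1922 and 400 reads, or 37.4 and 18.1 CPM, 2.06-fold higher in the SVZ (log2 ratio 1.04, 0.89 to 1.20). The pair had nearly the same number of reads in the SVZ and separated in the cortex, with 1.02 *Etv1* reads per *Etv5* read in the SVZ and 0.552 in the cortex (SVZ over cortex 1.84, 1.54 to 2.20). *Etv4* (chromosome 11, 101769742 to 101785371, minus strand) had 60 reads in the SVZ, 1.17 CPM, and 0 in the cortex. Set against 3 reads in the cortex, the SVZ level was 8.57-fold higher, with an exact lower limit of 6.76-fold. With a mean of 0.583 CPM, *Etv4* is the 1 member left out of the counts over compared genes.

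*Dusp6* (chromosome 10, 99263231 to 99267489, plus strand) lay on the cortex side, as *Spry1* did and the PEA3 factors did not. It had 460 reads in the SVZ and 4028 in the cortex, or 8.94 and 183 CPM, and was 20.4-fold higher in the cortex (interval 18.5 to 22.5, log2 ratio -4.35, -4.49 to -4.21). Only 1.78% of the compared genes had a lower ratio. In the cortex *Dusp6* stood above 91.0% of the compared genes in CPM, and in the SVZ above 28.6%. Because both *Dusp6* and the PEA3 factors are known as ERK-induced genes, their balance within each library was taken as well, which needs no scaling between libraries. These pairs were chosen after their values were seen and carry no test. There were 0.239 *Dusp6* reads per *Etv5* read in the SVZ and 10.1 in the cortex, a 42.1-fold gap (36.3 to 48.8). Per *Fgfr1* read there were 0.103 and 3.78, a 36.7-fold gap (32.6 to 41.3). *Spry2* per *Fgfr1* read moved far less, from 0.284 in the SVZ to 0.497 in the cortex, 1.75-fold (1.55 to 1.98), and *Etv5* per *Fgfr1* read was 0.431 and 0.376, or 1.15-fold higher in the SVZ (1.01 to 1.31). A second ERK phosphatase gene, *Dusp4*, whose product is nuclear, was opposite to *Dusp6*, with 529 reads in the SVZ and 23 in the cortex (10.3 and 1.04 CPM, 9.86-fold higher in the SVZ). The SVZ thus held 0.870 *Dusp6* reads per *Dusp4* read and the cortex 175.

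Start regions are shown for *Dusp6*, the member furthest to the cortex side, for *Spry2*, the member nearest to equal levels, and for *Etv5*, an SVZ-side member with 2 annotated starts whose windows differ in ETS cores. Each window runs from 250 bases before the RefSeq start to 50 after it on GRCm38.p6, on the strand of the gene, and capitals mark the ETS core GGAA on either strand. The windows are chr10:99262981-99263280 on the plus strand for *Dusp6* and, on the minus strand, chr14:105896770-105897069 for *Spry2* and chr16:22439521-22439820 and chr16:22438319-22438618 for *Etv5*.
Dusp6: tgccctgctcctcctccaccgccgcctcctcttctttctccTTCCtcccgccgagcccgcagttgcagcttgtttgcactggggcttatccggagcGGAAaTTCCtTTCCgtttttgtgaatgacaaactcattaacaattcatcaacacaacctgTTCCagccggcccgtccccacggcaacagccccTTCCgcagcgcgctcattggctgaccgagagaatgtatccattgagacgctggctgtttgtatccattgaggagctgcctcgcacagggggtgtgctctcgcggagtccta
Spry2: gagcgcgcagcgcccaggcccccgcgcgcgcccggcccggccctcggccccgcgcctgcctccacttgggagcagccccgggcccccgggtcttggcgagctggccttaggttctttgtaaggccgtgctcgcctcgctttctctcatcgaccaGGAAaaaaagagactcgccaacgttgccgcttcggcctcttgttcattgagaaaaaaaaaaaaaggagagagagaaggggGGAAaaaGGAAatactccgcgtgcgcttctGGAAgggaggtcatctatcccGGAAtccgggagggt
Etv5 start 1: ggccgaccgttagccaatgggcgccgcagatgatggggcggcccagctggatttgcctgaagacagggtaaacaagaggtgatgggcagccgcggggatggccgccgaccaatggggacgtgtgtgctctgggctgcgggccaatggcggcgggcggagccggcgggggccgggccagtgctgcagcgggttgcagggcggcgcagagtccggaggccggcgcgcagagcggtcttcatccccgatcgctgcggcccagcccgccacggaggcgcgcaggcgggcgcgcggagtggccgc
Etv5 start 2: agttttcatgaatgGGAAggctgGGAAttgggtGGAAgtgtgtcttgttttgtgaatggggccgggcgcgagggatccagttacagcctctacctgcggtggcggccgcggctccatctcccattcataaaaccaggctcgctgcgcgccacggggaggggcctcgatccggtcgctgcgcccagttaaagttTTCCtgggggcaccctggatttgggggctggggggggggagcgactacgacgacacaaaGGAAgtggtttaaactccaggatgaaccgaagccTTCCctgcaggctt
The *Dusp6* window held 6 such cores, the *Spry2* window 5 and the *Etv5* windows 0 and 6. In the *Spry2* window 1 core has the longer flank CCGGAA. The core is short, and 96.0% of 32851 windows of the same length in the table held at least 1, with a median of 3. The flanked form was in 14.9% of windows. The PEA3-type form AGGAAG, which also contains the core, was in 35.4% of windows and matched 1 time each in the *Dusp6* window and at *Etv5* start 2. The cyclic AMP response core TGACGT, held by 7.5% of windows, was in none of these 4. The GC box GGGCGG, held by 35.7%, occurred 3 times at *Etv5* start 1. All motifs were searched on both strands. The *Etv5* counts cover the whole gene and do not say which start was used. A match is a string of letters and not a bound site. The part of these motifs in the differences between the areas was not tested.

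Of the 10 genes, 9 averaged 1 CPM or more. Of these 9, 4 were higher in the SVZ by 2-fold or more (*Fgfr3*, *Spry4*, *Etv1* and *Etv5*), as were 20.0% of all compared genes, and 2 were higher in the cortex by 2-fold or more (*Spry1* and *Dusp6*), as were 15.6%. *Fgfr1*, *Fgfr2* and *Spry2* were within 2-fold. The whole interval lay past 2-fold for *Fgfr3* and *Etv1* in the SVZ (16.1% of all compared genes) and for *Spry1* and *Dusp6* in the cortex (12.9%). The interval held equal levels for *Spry2* only, and it left out equal levels for the other 8 of 9 genes, close to the 86.8% of all compared genes, so at this depth most genes differ by more than counting error. The median log2 ratio of the 9 genes was 0.85, beside a median of 0.11 and quartiles of -0.56 and 0.76 over all 12738 compared genes, of which 54.9% were higher in the SVZ. *Etv5* and *Spry4* lay just past the 2-fold line, and *Fgfr1* and *Fgfr2* just short of it. With the libraries scaled by TMM, by the size factors of DESeq2 or by upper quartiles, which moved the median of all compared genes by -0.09, -0.09 and -0.10, *Etv5* and *Spry4* fell short of the line as well, leaving 2 of 9 genes past it on the SVZ side, where 18.3%, 18.3% and 18.2% of all compared genes were.

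**Figure D2:**
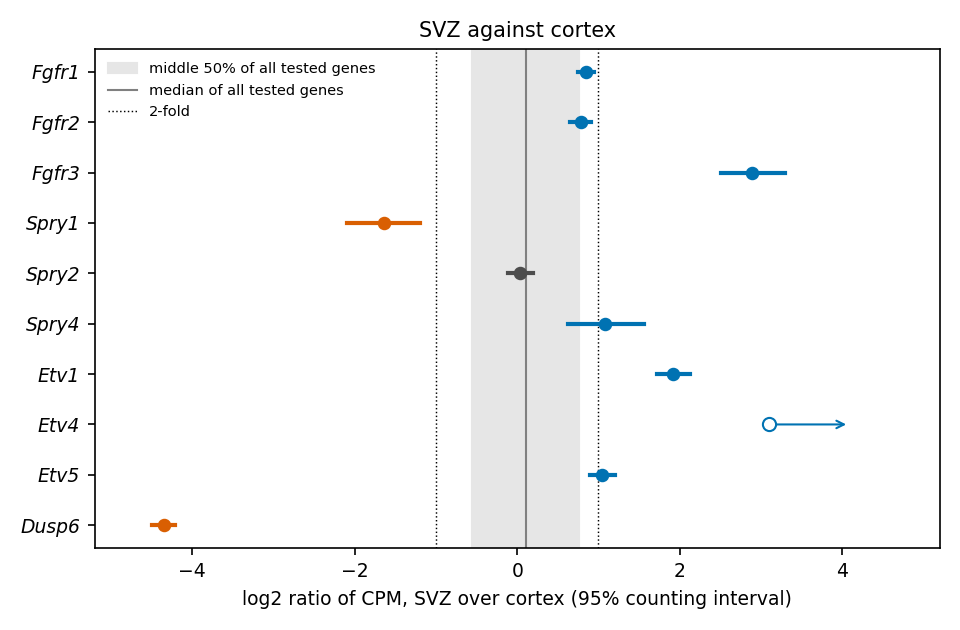
Log2 ratio of CPM, SVZ over cortex, for each gene with its exact 95% counting interval, over the middle 50% of all 12738 compared genes (grey) and their median (line at 0.11); dotted lines mark 2-fold. *Dusp6* at -4.35 and *Spry1* at -1.64 lie on the cortex side, *Spry2* spans 0, the other genes lie on the SVZ side, and the open symbol with an arrow is the lower bound for *Etv4*.

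**Figure D3:**
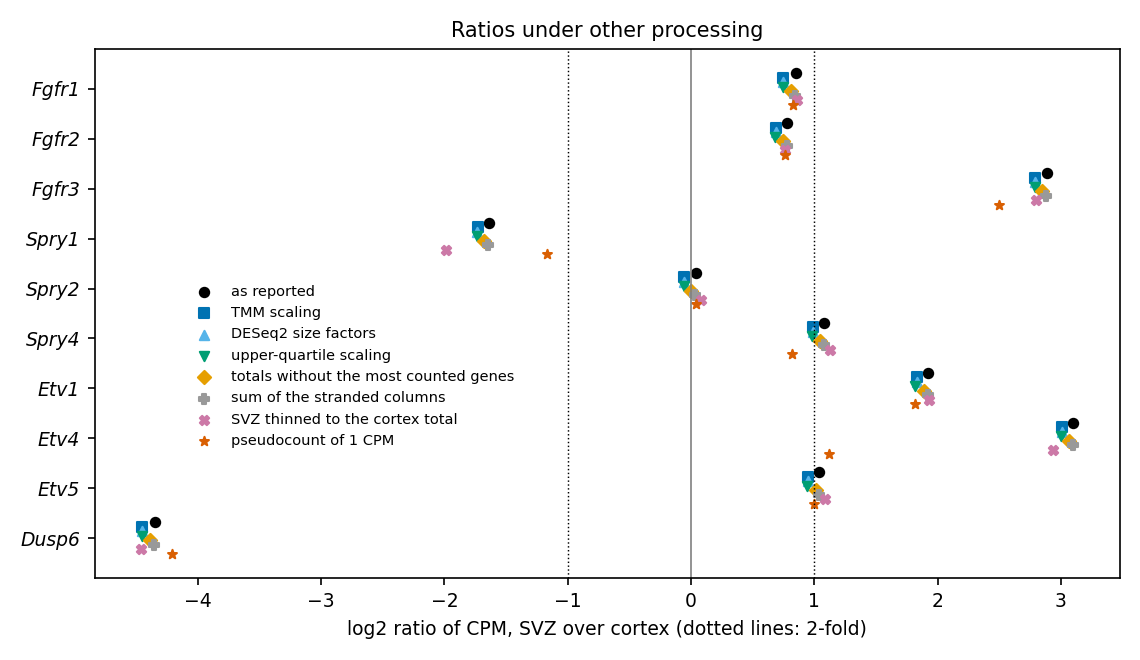
Log2 ratio of CPM, SVZ over cortex, for each gene as reported (black circles) and under 7 other ways of processing the counts (other symbols); dotted lines mark 2-fold. Every gene but *Spry2* keeps its side of 0, and *Etv5* and *Spry4* sit on the 2-fold line.

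Within each family, the make-up of the reads differed between the areas, again without any scaling between libraries. *Fgfr3* gave 13.0% of the 7952 receptor reads in the SVZ (exact binomial 95% interval 12.3 to 13.8%) and 3.45% of 1738 in the cortex (2.64 to 4.42%). *Fgfr1* remained the most counted receptor in both, with 56.1% and 61.3%, and *Fgfr2* followed with 30.9% and 35.3%. The summed receptor level in CPM was also higher in the SVZ, but that sum does need scaling between libraries and includes *Fgfr3*. Of the Sprouty reads, *Spry2* gave 80.3% of 1577 in the SVZ (78.2 to 82.2%) and 78.3% of 676 in the cortex (75.0 to 81.3%), intervals that overlap. The smaller shares changed places, with *Spry4* at 15.0% and *Spry1* at 4.69% in the SVZ against 7.10% and 14.6% in the cortex. In the PEA3 group *Etv1* and *Etv5* took nearly equal shares of 3935 reads in the SVZ, 49.6% (48.1 to 51.2%) and 48.8% (47.3 to 50.4%). In the cortex *Etv5* led with 64.4% of 621 reads (60.5 to 68.2%) over *Etv1* with 35.6% (31.8 to 39.5%). *Etv4* gave 1.52% in the SVZ and 0 of 621 reads in the cortex, which allows a share of up to 0.483% at 3 reads (exact binomial upper limit 0.592%).

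**Figure D4:**
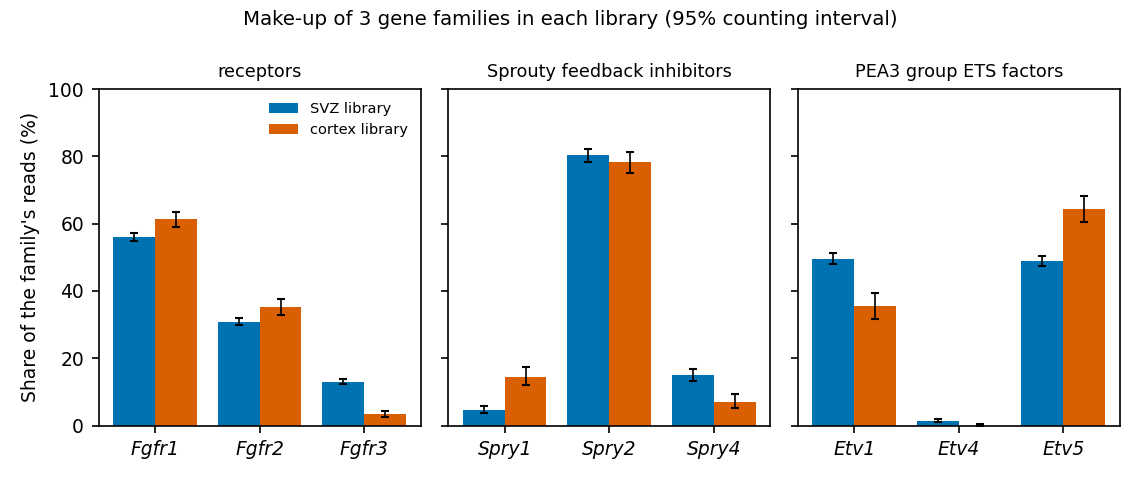
Share of each family's reads (%) given by each of its 3 members in the SVZ library (blue) and the cortex library (orange), with exact binomial 95% intervals. *Fgfr3*, *Spry4* and *Etv1* take a larger share in the SVZ (13.0%, 15.0% and 49.6%) than in the cortex (3.45%, 7.10% and 35.6%), and *Spry1* a larger share in the cortex.

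Levels of different genes were compared per length, as reads per kilobase of merged exons, scaled to the same total of 1000000 reads (RPKM). In the SVZ *Spry2* was highest at 11.8 RPKM, above *Etv5* at 9.11 and *Fgfr1* at 8.79, which were not separated from each other by counting error. *Fgfr2* followed at 4.62 RPKM, a level that the read-through model may understate. With the longest transcript it was 10.8 RPKM, a measure that also raised *Fgfr1* to 17.2 and left *Spry2* at 11.8. *Etv1* and *Dusp6*, both at 2.86, and *Fgfr3* at 2.81 RPKM formed a level group that counting error did not separate, and *Spry4* at 0.969, *Spry1* at 0.495 and *Etv4* at 0.376 RPKM were lowest, the last pair again not separated. In the cortex *Dusp6* led at 58.3 RPKM, 5.07 times the level of *Spry2* at 11.5 (4.63 to 5.57). *Fgfr1* at 4.89 and *Etv5* at 4.42 RPKM were not separated, *Fgfr2* stood at 2.69 (6.28 with the longest transcript), *Spry1* at 1.54 and *Etv1* at 0.754 RPKM. *Spry4* at 0.458 and *Fgfr3* at 0.380 RPKM were not separated, and *Etv4* was at 0. *Dusp6* thus held the sixth place of 10 in the SVZ and the first in the cortex, while *Spry2* and *Fgfr1* stood in the upper 3 places of both. With the longest transcript as the length, *Fgfr1* took the first place in the SVZ (17.2 RPKM, *Spry2* 11.8), and *Dusp6* and *Spry2* kept the first and second places in the cortex. *Etv5* went from the second place to the fourth in the SVZ and from the fourth to the fifth in the cortex, and *Spry4* and *Fgfr3* changed places in the cortex. The order therefore depends on the gene models, which are from GENCODE and not those with which the reads were counted.

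The other genes of the pathway lay on both sides. Of 120 genes in 10 lists 119 had a row and 88 averaged 1 CPM or more, of which 17 were at least 2-fold higher in the SVZ, 22 at least 2-fold higher in the cortex and 49 within 2-fold, beside 20.0%, 15.6% and 64.4% of all compared genes, with a median log2 ratio of -0.06 (-0.11 over the 68 genes that are not other receptor tyrosine kinases). Beside the 3 receptors, the remaining FGF receptor gene with a kinase, *Fgfr4*, had 1 read in the SVZ and 59 in the cortex (log2 ratio -7.10, -12.43 to -4.57). *Fgfrl1*, whose product binds FGFs but lacks the kinase domain, had 485 reads and 1 read (log2 ratio 7.70, 5.21 to 13.01). *Fgfr4* was thus the only receptor gene of the family on the cortex side, at a level of 2.68 CPM against 48.3 for *Fgfr1* there. The co-receptor *Klb* had 23 and 8 reads and *Kl* 0 in both. Of the FLRT genes, adhesion molecules that can bind FGF receptors, *Flrt2* was 4.27-fold higher in the cortex (44.6 and 190 CPM), *Flrt3* 1.39-fold higher in the SVZ (262 and 188 CPM) and *Flrt1* at 30.7 and 33.2 CPM.

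Secreted FGF ligands were scarce. Of 18 ligand genes, 8 had no read in either library, and *Fgf17* and *Fgf22* had at most 2 reads. A mean of 1 CPM was reached by 3 of the 18, beside 12738 of all 24411 gene rows. *Fgf10* had 0 reads in the SVZ and 169 in the cortex (7.66 CPM). It was 131-fold higher there against a floor of 3 reads (log2 ratio -7.04, exact limit -6.72). *Fgf9* had 56 and 104 reads (1.09 and 4.72 CPM, 4.33-fold higher in the cortex) and *Fgf7* 133 and 8 (2.59 and 0.363 CPM, 7.13-fold higher in the SVZ). Thus the ligand with the most reads in each area was a different gene. Against a floor of 3 reads, *Fgf18* with 0 and 35 reads was 27.2-fold higher in the cortex. In the same way *Fgf15* with 29 and 0 reads was 4.14-fold higher in the SVZ. Among the rest, *Fgf5* had 22 and 29 reads, *Fgf1* 9 and 10 and *Fgf23* 2 and 12. The ligand list summed to 4.90 CPM in the SVZ and 16.7 CPM in the cortex, so that the cortex had the higher summed ligand level and the SVZ the higher summed receptor level. The intracellular FGF homologous factors, which act on sodium channels and not on FGF receptors, held *Fgf14*, 11.7-fold higher in the cortex (9.10 and 107 CPM), and *Fgf13*, at 104 and 107 CPM.

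Of the genes between receptor and ERK, most were within 2-fold, as were 64.4% of all compared genes. Of 12 compared genes for RAS, RAF, MEK and ERK, 10 were within 2-fold, *Rras* was 2.85-fold higher in the SVZ and *Rras2* 3.50-fold higher in the cortex. *Nras*, the most counted of them, stood at 701 and 666 CPM. Of 12 adaptors and exchange factors 8 were within 2-fold, *Gab1* was 2.61-fold higher in the SVZ, 3 were at least 2-fold higher in the cortex, among them *Frs3* by 3.54-fold, and *Crk* was the most counted (122 and 128 CPM). All 5 compared RAS GTPase activators were within 2-fold, with *Rasa1* the most counted (120 and 133 CPM). Among the compared members, *Etv1* at 3.79-fold, *Fgfr3* at 7.39-fold and *Dusp6* at 20.4-fold stood further from equal levels than any compared gene from adaptors to ERK. For *Etv1* the margin was small. Its interval (log2 ratio 1.72 to 2.13) overlapped in size those of *Frs3* (-2.33 to -1.33) and *Rras2* (-1.94 to -1.68).

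Genes that restrain the pathway or carry its output lay on both sides, as did all compared genes (20.0% and 15.6% past 2-fold). Of 8 other compared feedback inhibitors, *Dusp4* was higher in the SVZ, 3 were at least 2-fold higher in the cortex, among them *Dusp7* by 2.45-fold (3.95 and 9.66 CPM), and 4 were within 2-fold. *Spred1*, a Sprouty-related inhibitor and the most counted of them, stood at 77.4 and 62.0 CPM. The 183 CPM of *Dusp6* in the cortex was the highest level of any of these inhibitors or of the 10 members in either library. Of 11 nuclear ERK effectors, the ETS factor gene *Elk3* (14.5 and 1.59 CPM, 9.13-fold) and the ETS repressor gene *Erf* (1.98 and 0.408 CPM, 4.86-fold) were higher in the SVZ, 2 were at least 2-fold higher in the cortex and 7 were within 2-fold, with *Rps6ka5* the most counted (33.3 and 36.6 CPM). Of 8 compared genes of a list of further candidate targets, 4 were at least 2-fold higher in the SVZ, among them *Ccnd1*, which encodes cyclin D1, by 4.66-fold and *Epha4*, the most counted, by 3.02-fold. On the cortex side were 3, *Myc* by 4.35-fold, *Spsb1* by 4.13-fold and *Ier3* by 3.43-fold.

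**Figure D5:**
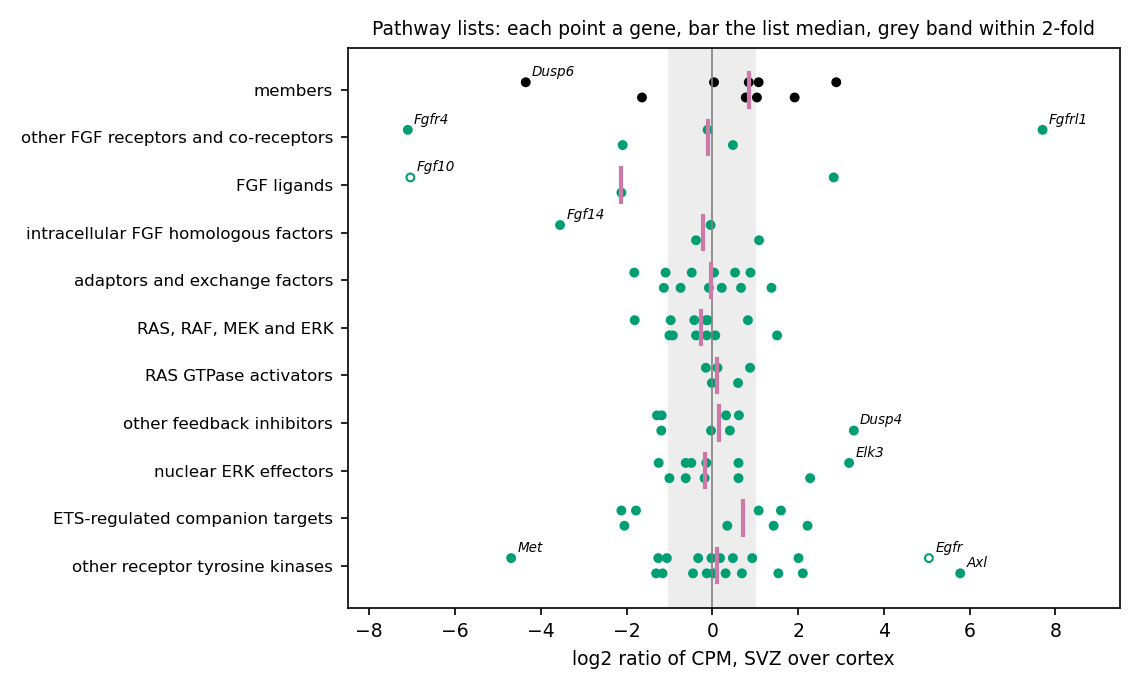
Log2 ratio of CPM, SVZ over cortex, of every gene that averaged 1 CPM or more in the members and in 10 pathway lists; each point is a gene, open points are bounds for genes at 0 in a library, the bar is the list median and the grey band is within 2-fold. The lists from adaptors to RAS GTPase activators lie mostly within the band, and *Dusp6* lies on the cortex side opposite to *Dusp4*.

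Sharing of reads with other genes touches 4 members in the GENCODE models. *Fgfr1* overlaps *Gm16159* on the opposite strand over 164 exon bases, *Fgfr3* overlaps *G630022F23Rik* over 998 and *Spry1* overlaps *Gm42922* over 710, and the counting used no strand. The read-through model of *Fgfr2* shares 314 exon bases with *Ctbp2*. The strand-specific columns added 9 and 7 reads to *Fgfr1* and none to the other members. Forward reads were 39.2% to 55.0% of each member's strand-specific reads in the SVZ, so reads of overlapping antisense RNA cannot be told apart from reads of these genes.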

How the data were processed

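LCM RNA-seq of the SVZ and the cortex at embryonic day 16.5 was analysed, 1 library per area. Per the study's methods, the authors used cutadapt 4.1 to trim adapters and STAR 2.7.9a to map the first read of each pair to mm10 (Illumina iGenomes) and to count it by gene. The deposited counts are raw whole numbers, 1 unstranded and 2 stranded columns for each library. No molecular identifiers are described, so copies of the same molecule made in library preparation could not be told apart. Intervals and floors cover counting error only and treat each read as independent. Where reads are copies, they are too narrow. STAR leaves out reads that map to several places or overlap more than 1 gene (ambiguous: 1.44% of SVZ and 1.28% of cortex reads). The authors' deposited table of CPM values and fold changes was not used.

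The unstranded counts were used. The 4 lines that name no gene (41.0% and 40.9% of reads) stayed out of totals. CPM, and the log2 ratio of SVZ over cortex CPM without a pseudocount, were computed with an exact 95% interval (Clopper-Pearson, on the SVZ share of a gene's reads). A count of 0 was set to 3 reads and its ratio given as a bound, without the counting error of the other library. The exact limits lie nearer to equal levels. Genes averaging 1 CPM or more were compared, and at least 2-fold was the rule of size. No p-value was computed. Lengths and coordinates came from GENCODE M21 (GRCm38) and start regions from RefSeq (windows read for 7 of 10 members, of which those of 3 are shown). Alternatives used edgeR 4.0.16 (TMM, upper quartile), DESeq2 1.42.0 (median of ratios), totals that leave out either library's 10 most counted genes, the summed stranded columns, the SVZ thinned to the cortex total and a pseudocount of 1 CPM. Interval and ratio code was tested on simulated data.

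The members and lists were chosen with earlier results of these data known. All members are named, with each ligand and receptor above 3 reads in a library, and, of each other pathway list, genes whose whole interval lay past 2-fold and the most counted gene. Other genes were named after their values were seen. Of marker lists, counts, sums and markers at 0 are given, and the 2 most counted genes of each, which the rule also names, are mostly left out for length. Python 3.11.15 (scipy 1.17.1) and R 4.3.3 were used.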

Additional observations from a re-analysis of the deposited data

How the results depend on the processing

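No paired analysis was possible because the areas had a single library apiece and no test was made. Over 7 alternatives (3 scalings, totals without the most counted genes, summed stranded columns, the SVZ thinned to the cortex total, a pseudocount), 70 member ratios were computed. Of these 65 stayed within their counting interval and 5 left it: *Fgfr1* at 0.75 under upper-quartile scaling and, with a pseudocount of 1 CPM, which pulls ratios of low genes towards 0, *Fgfr3* at 2.50, *Spry1* at -1.17, *Etv4* at 1.12 and *Dusp6* at -4.21. *Spry2* ranged from -0.06 to 0.08 and kept its sign in 3 of 7. The count of members at least 2-fold higher in the SVZ, 4 as reported (20.0% of all compared genes), was 2 under TMM, DESeq2 and upper-quartile scaling (18.3%, 18.3% and 18.2%) and for whole intervals past 2-fold (16.1%), 3 with the pseudocount (17.7%), 6 at 1.5-fold or more (30.5%) and 1 at 4-fold or more (10.2%). The count for the cortex, 2 as reported (15.6%), was 1 at 4-fold or more (7.01%). Under TMM, DESeq2 and upper-quartile scaling, 15 pathway genes were past 2-fold on the SVZ side and 25 on the cortex side. The shares of all compared genes were then 18.2% to 18.3% and 17.1% to 17.3%. With a mean of at least 10 CPM, fewer genes entered. Past 2-fold were then 7 pathway genes on the SVZ side and 9 on the cortex side, against 17 and 22 as reported. Of all genes, 1341 and 1113 were past 2-fold, against 2547 and 1992 as reported. The number of genes compared at that filter is not given here, so these counts are not read as shares. With the longest transcript as length, 4 of 10 members kept their rank in the SVZ and 6 in the cortex. Depth limits *Etv4*, *Spry4*, *Spry1* and *Fgfr3* most, with 0, 48, 99 and 60 reads in the cortex. The spread between embryos, dissections and libraries is unknown, and no interval here covers it.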

Other observations

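Other receptor tyrosine kinases, which share the RAS and ERK chain with the FGF receptors, lay on both sides. Of 20 compared genes, 5 were at least 2-fold higher in the SVZ, 5 at least 2-fold higher in the cortex and 10 within 2-fold, beside 20.0%, 15.6% and 64.4% of all compared genes, with a median log2 ratio of 0.10. The whole interval lay past 2-fold for 5 genes in the SVZ and 2 in the cortex, beside 16.1% and 12.9% of all compared genes. On the SVZ side, *Egfr*, the epidermal growth factor receptor, had 232 reads against 0 in the cortex. Against a floor of 3 reads it was 33.2-fold higher in the SVZ (log2 ratio 5.05, exact limit 4.74). *Axl*, a receptor for GAS6, had 1023 and 8 reads (19.9 and 0.363 CPM, log2 ratio 5.78, 4.79 to 6.99). *Erbb2* was 4.32-fold higher (4.51 and 1.04 CPM), *Erbb4*, a neuregulin receptor, 4.03-fold (310 and 33 reads) and *Ddr1*, a collagen receptor, 2.90-fold (41.2 and 14.2 CPM). *Axl* is also expressed by microglia, whose 8 markers were all at least 2-fold higher in the SVZ, and their part in its ratio was not tested.

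On the cortex side, *Met*, the hepatocyte growth factor receptor, had 19 reads in the SVZ and 210 in the cortex (0.369 and 9.52 CPM, log2 ratio -4.69, -5.45 to -4.01), a ratio of the size of that of *Dusp6*. *Kit* was 2.48-fold higher in the cortex (22.4 and 55.6 CPM). *Igf1r*, the most counted of the list, stood at 167 and 209 CPM. *Pdgfra*, *Pdgfrb*, *Kdr*, *Flt1* and *Tek* are also in the marker lists for oligodendrocyte precursors or vessels, and of these *Flt1* alone was at least 2-fold apart, 2.39-fold higher in the cortex.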
